A study of Homo sapiens with 4 samples.

Results

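The 10 genes described here encode proteins that have been reported to read N6‐methyladenosine (m6A), the most common internal modification of messenger RNA. They are YTHDF1, YTHDF2, YTHDF3, YTHDC1, YTHDC2, IGF2BP1, IGF2BP2, IGF2BP3, HNRNPA2B1 and HNRNPC. They were taken by gene symbol from a table of 46427 genes, all 10 had a row in it, and all 10 passed the filter on low counts that left 17781 genes. The cells were SNU638, a long-established line of human gastric cancer, and they received either the control vector (Control) or a vector for YTHDF1 (genotype YTHDF1 overexpression), each as replicates 1 and 2. Every library, Control included, was kept 24 h without serum and then given IFN‐γ at 10 ng/ml, so untreated cells were not part of the comparison. The IFN‐γ lasted 8 h by the labels. A longer time is given in the study's text, so the duration is uncertain. The study's methods describe plasmid transfection in general, but do not say for these libraries which promoter drove YTHDF1 or whether the vector was transient or stable.

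The YTH proteins bind m6A directly, through a pocket of aromatic residues in the domain that gives them their name. YTHDF1, YTHDF2 and YTHDF3 are closely related cytoplasmic readers, tied to translation and to decay of methylated mRNA through the CCR4‐NOT deadenylase, and how far they are redundant is debated. YTHDC1 is the nuclear YTH reader, which acts in splicing and export, and YTHDC2 is a helicase best known from meiosis. The IGF2BP proteins bind RNA through KH domains and stabilise their targets, and IGF2BP1 and IGF2BP3 are oncofetal. HNRNPA2B1 and HNRNPC are abundant nuclear proteins whose access to RNA can change when m6A alters its structure. The comparison asks what the mRNA of the other readers did when 1 of them was overexpressed.

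The coding sequences of YTHDF1 and YTHDF2 are shown around the longest stretch that they share, because the YTHDF1 libraries hold so many YTHDF1 reads that reads of a paralog must be told apart from them. Capitals mark the 20 identical bases. In YTHDF1 they start at codon 395 for lysine and cover codon 397 for tyrosine, which are the residues changed in the study's mutant that cannot bind m6A, and in YTHDF2 the same bases start at codon 416. Both stretches lie in a single coding exon (GRCh38, chr20:63202708-63202787 on the minus strand and chr1:28743486-28743565 on the plus strand), were taken from GENCODE release 29 and match at 65 of 80 positions.
YTHDF1: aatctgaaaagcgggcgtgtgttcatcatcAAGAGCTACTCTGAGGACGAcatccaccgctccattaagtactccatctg
YTHDF2: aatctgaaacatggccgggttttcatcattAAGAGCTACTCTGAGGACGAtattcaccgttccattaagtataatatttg
Over aligned coding bases the identity was 70.8% for YTHDF1 with YTHDF2 and 71.5% for YTHDF1 with YTHDF3, where the longest shared run was 17 bases. Gapped positions were left out of this measure, and YTHDF1 with YTHDC2 gave 73.8%, with a longest shared run of 14 bases. The percentage therefore does not rank the genes by likeness or say how well their reads can be told apart. The read length is not given in the sources used here. YTHDF1P1, a pseudogene of YTHDF1 with a shared run of 31 bases, had 0 counts in both YTHDF1 libraries and 2 and 0 in the Control libraries. YTHDF2P1, which shares a run of 149 bases with YTHDF2, had 68 and 47 counts in Control and 67 in each YTHDF1 library, so a small part of the YTHDF2 reads could have been counted there.

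Total counts were between 57398137 and 60864942 per library, and sharing a replicate number brought libraries nearer together than sharing a vector did. Levels are given as CPM, the count of a gene relative to the TMM-scaled size of its library. Pearson's r of log2 CPM over the genes tested, which are not independent replicates, was 0.985 and 0.983 between the vectors within replicates 1 and 2, and 0.886 and 0.888 between the replicates of Control and of YTHDF1. All 8 epithelial markers had 10 counts or more in every library (EPCAM, CDH1, KRT8, KRT18, KRT19, CLDN4, CLDN7 and ESRP1, with summed levels of 4150 to 6866 CPM). They were not even between the replicate numbers. The claudin CLDN4 had 55.0 CPM with Control and 56.6 CPM with YTHDF1 in replicate 1, but 0.934 and 0.994 CPM in replicate 2, and the keratin KRT18 had 956.7 and 891 CPM in replicate 1 and 1816 and 1903 CPM in replicate 2. The summed levels were at most 0.723 CPM for 4 leukocyte markers, 11.5 CPM for 4 fibroblast markers and 0.561 CPM for 3 endothelial markers.

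YTHDF1 (NCBI Gene ID 54915, chr20:63195429-63216234, minus strand) was the 1 reader that differed between the vectors beyond the threshold. It had 4889 and 4555 counts in Control replicates 1 and 2, or 82.2 and 80.3 CPM, and 971190 and 158662 counts in YTHDF1 replicates 1 and 2, or 16490 and 2628 CPM. The groups were far apart, and the YTHDF1 replicates were themselves 6.28‐fold apart, whereas the Control replicates differed 1.02‐fold. Within replicate 1 the level was 201‐fold that of Control, and within replicate 2 it was 32.7‐fold. By count among all genes YTHDF1 ranked 2638 and 2739 in the Control libraries, 1 in YTHDF1 replicate 1 and 22 in YTHDF1 replicate 2. The log2 fold change over the 4 libraries was 6.88 (standard error 1.20), with an unadjusted p = 0.00613 and an adjusted p = 1.00 in the quasi‐likelihood fit of edgeR, and an exact permutation test of 2 libraries against 2 cannot give a two‐sided p below 0.333. It was 5.02 without YTHDF1 replicate 1 and 7.66 without YTHDF1 replicate 2. Counts in bulk RNA do not separate the share of cells that expressed the vector from the amount per cell. They do not separate reads of the vector from those of the endogenous gene either.

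Counts are compared between genes only after division by transcript length. For this the longest coding GENCODE transcript that is matched to a RefSeq mRNA was used, and the unit is CPM per kb. In Control the order from high to low was HNRNPC (504 ± 10.5 CPM per kb, SD, n = 2), HNRNPA2B1 (361 ± 39.4), YTHDF2 (38.8 ± 3.22), IGF2BP2 (35.2 ± 3.04), YTHDF1 (24.6 ± 0.412), IGF2BP3 (18.2 ± 4.72), YTHDC1 (17.2 ± 2.56), YTHDF3 (16.03 ± 1.08), YTHDC2 (8.37 ± 0.250) and IGF2BP1 (0.109 ± 0.00667). The Control ranges of YTHDF2 and IGF2BP2 overlapped, but within every library YTHDF2 was the higher. In Control replicates 1 and 2 it had 41.1 and 36.55 CPM per kb, against 37.3 and 33.0 for IGF2BP2. The libraries of IGF2BP3, YTHDC1 and YTHDF3 overlapped too, and these neighbours had no order beyond their spread. In YTHDF1 replicate 1 the YTHDF1 mRNA, at 4997 CPM per kb, was above HNRNPC at 512 CPM per kb. In YTHDF1 replicate 2 it was at 796 CPM per kb, also above HNRNPC, which was at 486 CPM per kb. Per kb of coding sequence the order of the hnRNP genes turned, with 1154 and 1347 for HNRNPA2B1 and 994 and 965 for HNRNPC in the Control libraries. Other neighbours turned as well. IGF2BP2, at 76.6 and 67.75, then lay above YTHDF2, at 69.2 and 61.5, and YTHDF3, at 54.4 and 49.5, above YTHDF1, at 49.0 and 47.9.

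**Figure D1:**
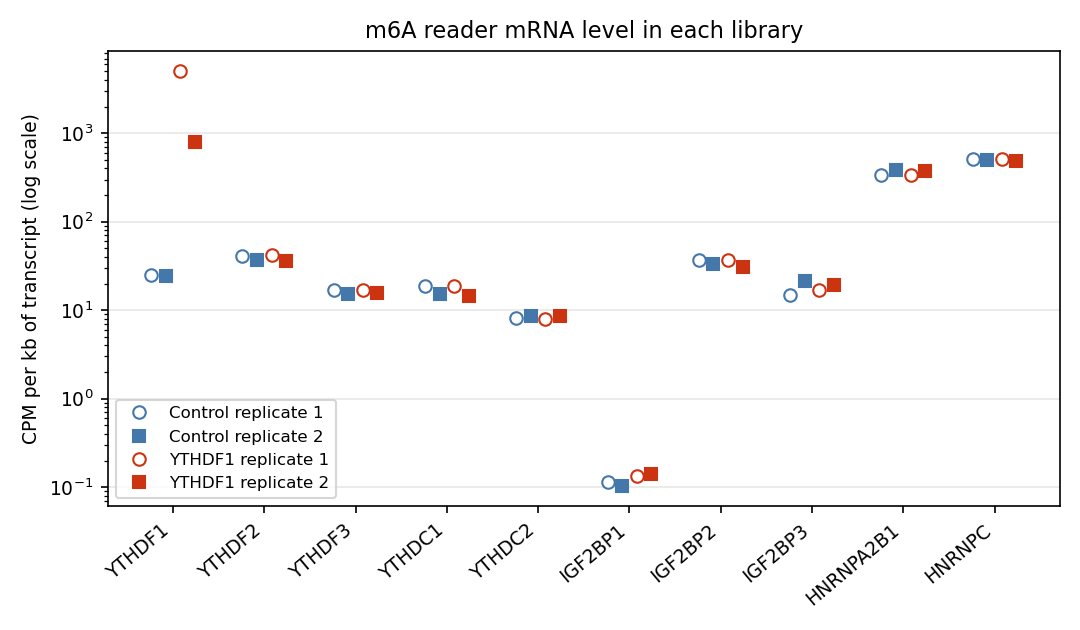
mRNA level of each reader in CPM per kb of transcript (log axis), with 1 point per library, circles for replicate 1, squares for replicate 2, blue for Control and red for YTHDF1. YTHDF1 moves from 24.3 and 24.9 in Control to 796 and 4997, while the points of every other gene stay close together and IGF2BP1 lies near 0.1.

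YTHDF1 made up nearly all YTHDF mRNA with its vector, while the levels of YTHDF2 and YTHDF3 overlapped between the vectors. In Control replicates 1 and 2, YTHDF1 was 30.1% and 32.0% of the summed CPM per kb of YTHDF1, YTHDF2 and YTHDF3, YTHDF2 was 49.6% and 48.0%, and YTHDF3 was 20.3% and 20.04%. With the YTHDF1 vector the YTHDF1 share was 98.8% in replicate 1 and 93.9% in replicate 2. The sum of the 3 paralogs was 82.8 and 76.1 CPM per kb in Control, and 5056 and 847.5 CPM per kb with YTHDF1. The part due to YTHDF2 and YTHDF3 together was 57.9 and 51.8 CPM per kb in Control and 59.4 and 51.4 CPM per kb with YTHDF1. Per kb of coding sequence YTHDF1 was 28.4% and 30.1% of the sum in Control and YTHDF3 was 31.5% and 31.1%, so the order of these 2 genes depends on the length used. A vector may carry less than the full transcript, so the YTHDF1 level per kb in the YTHDF1 libraries also depends on it.

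**Figure D2:**
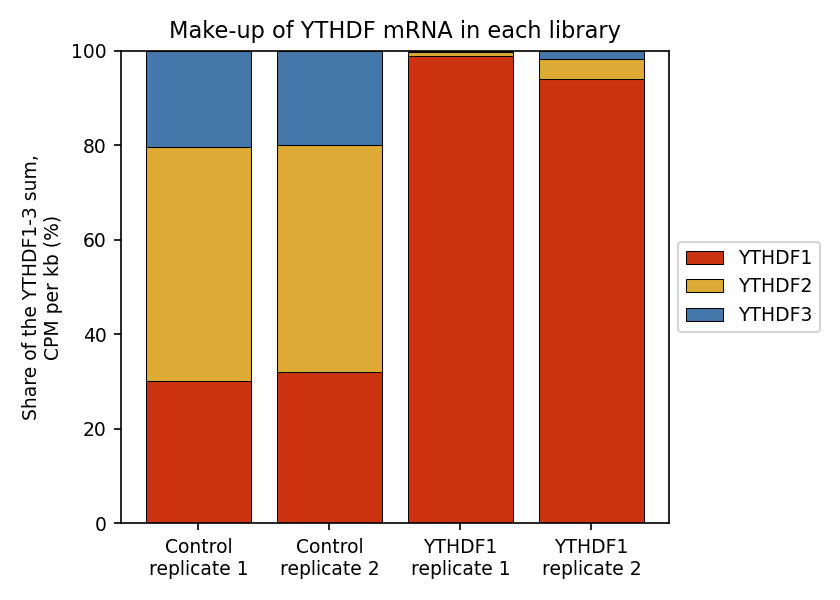
Stacked bars give the share (%) of YTHDF1, YTHDF2 and YTHDF3 in their summed CPM per kb of transcript for each of the 4 libraries. YTHDF1 takes 30.1% and 32.0% in the Control libraries and 98.8% and 93.9% in the YTHDF1 libraries, replicate 1 first.

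YTHDF2 (NCBI Gene ID 51441, chr1:28736621-28769775, plus strand), the paralog best known for mRNA decay, had 120 and 107 CPM in replicates 1 and 2 of Control and 125 and 105 CPM in those of YTHDF1. The groups overlapped, and in both the library numbered 1 was the higher one. Its log2 fold change was 0.016, with a 95% interval from the quasi‐likelihood fit of −0.37 to 0.40 (adjusted p = 1.00). YTHDF3, thought to act with both paralogs, had 87.2 and 79.2 CPM in Control and 87.2 and 80.7 CPM with YTHDF1. Again the libraries paired by number and not by vector, and the log2 fold change was 0.013 with a 95% interval of −0.27 to 0.30 (adjusted p = 1.00). These intervals are from the fit without a block. They exclude a change of 1 on the log2 scale in either direction for both paralogs, but not a change of 0.2. The standard errors were smaller with the replicate number as a block (0.0465 for each paralog by edgeR). The limit of 0.2 therefore belongs to the fit without it.

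YTHDC1 (chr4:68310387-68350089, minus strand), the nuclear reader, had 118 and 95.7 CPM in replicates 1 and 2 of Control and 116 and 89.5 CPM in those of YTHDF1. Both libraries numbered 2 were the low ones, and the groups overlapped. YTHDC2 (chr5:113513683-113595285, plus strand), the helicase, had 51.8 and 54.0 CPM in Control and 49.7 and 54.8 CPM with YTHDF1. Both YTHDF1 libraries of YTHDC2 lay outside the Control range, 1 on either side. The log2 fold changes were −0.055 for YTHDC1 (95% interval −0.62 to 0.51) and −0.017 for YTHDC2 (95% interval −0.29 to 0.26).

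Of the IGF2BP genes, IGF2BP1 (chr17:48997412-49055650, plus strand) was the lowest, with 56 and 49 counts in replicates 1 and 2 of Control and 65 and 70 counts in those of YTHDF1. On the CPM scale these were 0.942 and 0.864 against 1.10 and 1.16, and it was the 1 reader besides YTHDF1 whose groups did not overlap. That made 1 of 9, or 2 of 10 with YTHDF1, beside 11.5% of all genes tested. Its log2 fold change was 0.33 (95% interval −0.62 to 1.27, adjusted p = 1.00 by edgeR). IGF2BP2 (chr3:185643739-185825056, minus strand) was well expressed, with 138 and 122 CPM in Control and 135 and 114 CPM with YTHDF1. IGF2BP3 (chr7:23310209-23470467, minus strand) had 63.0 and 91.3 CPM in Control and 71.4 and 82.6 CPM with YTHDF1. Its YTHDF1 libraries lay between the Control libraries. The log2 fold changes of IGF2BP2 and IGF2BP3 were −0.059 (95% interval −0.44 to 0.32) and −0.0028 (95% interval −0.65 to 0.65). IGF2BP3 overlaps MALSU1 on the opposite strand over 1521 bases, and the strand setting of the counting is not given in the sources used here. MALSU1 had 1911 and 1935 counts in Control and 1893 and 2535 with YTHDF1, and its part in the IGF2BP3 counts was not tested.

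Apart from YTHDF1 in the YTHDF1 libraries, the hnRNP genes were the most abundant readers and the most precisely counted. HNRNPA2B1 (chr7:26173057-26201529, minus strand), a splicing regulator that also takes part in microRNA processing, had 1222 and 1426 CPM in replicates 1 and 2 of Control and 1248 and 1367 CPM in those of YTHDF1. Its YTHDF1 libraries also lay between the Control libraries, and it overlaps NFE2L3 over 14069 bases and CBX3 over 368 bases, both on the opposite strand. HNRNPC (chr14:21209136-21269494, minus strand), which binds uridine tracts in pre‐mRNA, had 912 and 886 CPM in Control and 913 and 866 CPM with YTHDF1. The log2 fold changes were −0.018 (95% interval −0.41 to 0.37) for HNRNPA2B1 and −0.015 (95% interval −0.30 to 0.26) for HNRNPC. The near copies of HNRNPC named HNRNPCL1, HNRNPCL2, HNRNPCL3 and HNRNPCL4 had at most 1 count in any library.

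A gene was called where its log2 fold change reached 0.5 in either direction with an unadjusted p under 0.05 in the edgeR fit. By this rule 1 of the 10 members, YTHDF1, was called higher, beside 0.0225% of all genes tested, and 0 were called lower, beside 0.0787%. At an adjusted p under 0.05 the members called were 0, as were the genes called among all tested (24 had an unadjusted p under 0.05), and DESeq2's Wald test called YTHDF1 with an adjusted p of 5.54e-14, among 1 higher and 2 lower genes in all. No other member had an unadjusted p under 0.05 by edgeR or by DESeq2. For the 9 other readers the median log2 fold change was −0.015, against 0.0046 over all genes tested, and 6 of them lay below 0, or 66.7% against 47.8%. The median standard error was 0.13 for these 9 genes and 0.27 for all genes. When 1 library was left out, the sign of the log2 fold change turned for 8 of the 9 genes, IGF2BP1 being the exception. The same share of all genes tested was not computed, and the replicate numbers are then unbalanced between the vectors for every gene. The widest shift among the 9 readers was in IGF2BP3, at −0.25 without Control replicate 1 and 0.29 without Control replicate 2.

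Taken within a replicate number, the differences were small and often opposite in sign. For the 9 readers other than YTHDF1, the difference of log2 CPM between the YTHDF1 and the Control library of the same number had the same sign in both numbers for 4 genes and opposite signs for 5. Over all genes tested 50.4% had the same sign. The largest contrast was in IGF2BP3, which was higher with YTHDF1 by 0.18 in replicate 1 (95% interval 0.12 to 0.25) and lower in replicate 2, at −0.15 (95% interval −0.20 to −0.089). These intervals cover counting error only, and reads without molecular identifiers may be copies of 1 molecule. HNRNPA2B1 likewise had 0.030 in replicate 1 (95% interval 0.015 to 0.045) and −0.061 in replicate 2 (95% interval −0.075 to −0.047). YTHDF2 had the same order of signs, at 0.052 (95% interval 0.0054 to 0.099) and −0.027 (95% interval −0.078 to 0.024). Its interval in replicate 2 held 0. YTHDC2 had the reverse order of signs, at −0.059 and 0.021. YTHDC1 was lower in both numbers, at −0.022 and −0.097, as was IGF2BP2, at −0.031 and −0.092. YTHDF3, at 0.00083 and 0.027, was among the closest to 0, and HNRNPC was at 0.0010 and −0.032. When the library sizes were computed without YTHDF1, the replicate 1 values of YTHDF3 and HNRNPC were −0.0064 and −0.0062, so that YTHDF3 then had opposite signs and HNRNPC the same sign.

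The counting interval left out 0 for 3 of the 9 genes in replicate 1 and for 5 in replicate 2. The same share of all genes tested was not computed, so these counts do not set the readers apart. IGF2BP1, at 0.23 and 0.42, had intervals that held 0 in both (−0.29 to 0.74 and −0.10 to 0.94). IGF2BP1 was the 1 gene of the 9 with a difference of at least 0.2 in both numbers, beside 3.50% of all genes tested. Of the 9, 0 were lower by that much, beside 4.84%. Apart from IGF2BP1, no reader other than YTHDF1 differed by more than 0.18 within either number. The YTHDF1 level was 6.28‐fold higher in replicate 1 of the YTHDF1 vector than in replicate 2, and the 9 other readers had a median absolute difference of 0.031 in replicate 1 and 0.061 in replicate 2, against 0.105 and 0.088 for all genes tested.

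**Figure D3:**
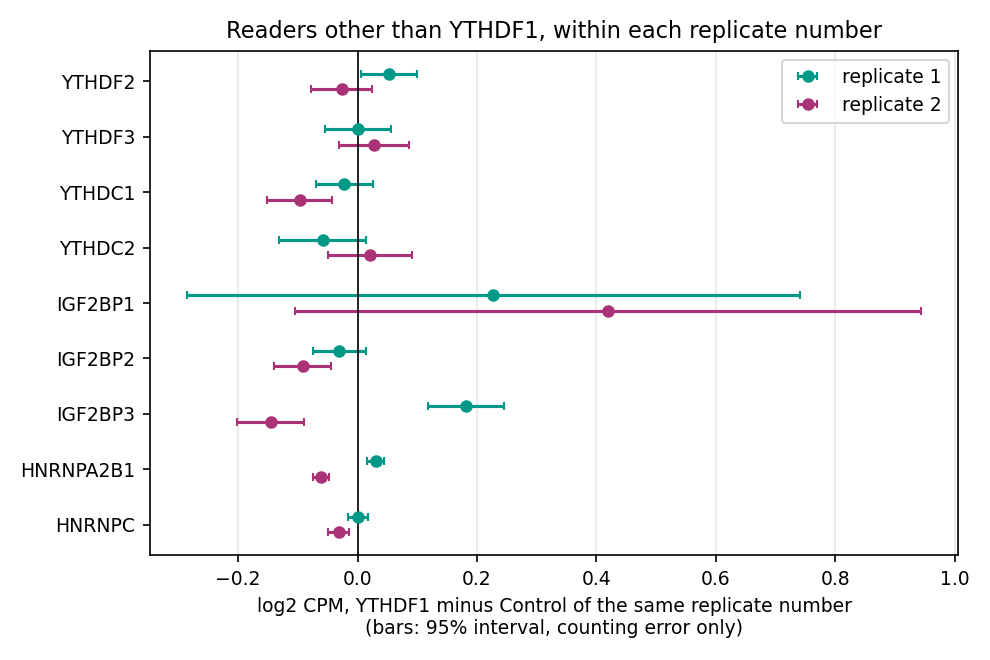
Difference of log2 CPM between the YTHDF1 and the Control library of the same replicate number for the 9 readers other than YTHDF1, with green for replicate 1, purple for replicate 2 and bars for the 95% interval from counting error alone. IGF2BP3 lies at 0.18 and −0.15, IGF2BP1 has the widest bars, and the other 7 genes lie within 0.1 of 0.

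The readers differed more between the replicate numbers than between the vectors, and so did the genes tested at large. Over all genes tested the median size was 0.069 between the vectors, and 0.33 with Control and 0.32 with YTHDF1 between the replicate numbers. For 8 of the 9 genes the log2 fold change between the vectors was smaller in size than the difference between replicates 2 and 1 with either vector. The same 8 genes had the same sign of that difference with both vectors. The share of all genes tested with either trait was not computed. The fold change draws on all 4 libraries, whereas each replicate difference draws on 2. The ninth, IGF2BP1, was at −0.12 with Control and 0.070 with YTHDF1. YTHDC1 was lower in replicate 2 by a log2 difference of −0.30 with Control and −0.38 with YTHDF1, or 0.81‐fold and 0.768‐fold. IGF2BP3 was higher in replicate 2, by 0.54 with Control and 0.21 with YTHDF1. HNRNPA2B1 was also higher, by 0.22 and 0.13, as was YTHDC2, by 0.061 and 0.14. Lower in replicate 2 were YTHDF2, at −0.17 and −0.25, IGF2BP2, at −0.18 and −0.24, YTHDF3, at −0.14 and −0.11, and HNRNPC, at −0.042 and −0.075.

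A difference of at least 0.2 in size with both vectors was found for IGF2BP3 among the higher genes, beside 23.5% of all genes tested, and for YTHDC1 among the lower, beside 27.6%. The median absolute difference between the replicate numbers was 0.17 in Control and 0.14 with YTHDF1 for the 9 readers, against 0.33 and 0.32 for all genes tested. The epithelial markers CLDN4 and ESRP1 were lower, and KRT8 and KRT18 higher, in replicate 2 with both vectors, by log2 differences of −5.87 and −5.82 for CLDN4 and of 0.92 and 1.09 for KRT18, and their part in the reader differences was not tested. The labels give the numbers no meaning beyond biological replicate, so no test was made of these differences. By profile over the 4 libraries, the closest pair of readers was YTHDF2 with IGF2BP2, with a root mean square difference of 0.037 between centred log2 CPM. YTHDF3 with HNRNPC followed at 0.039, and IGF2BP1 was 0.17 from its nearest, YTHDF3.

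**Figure D4:**
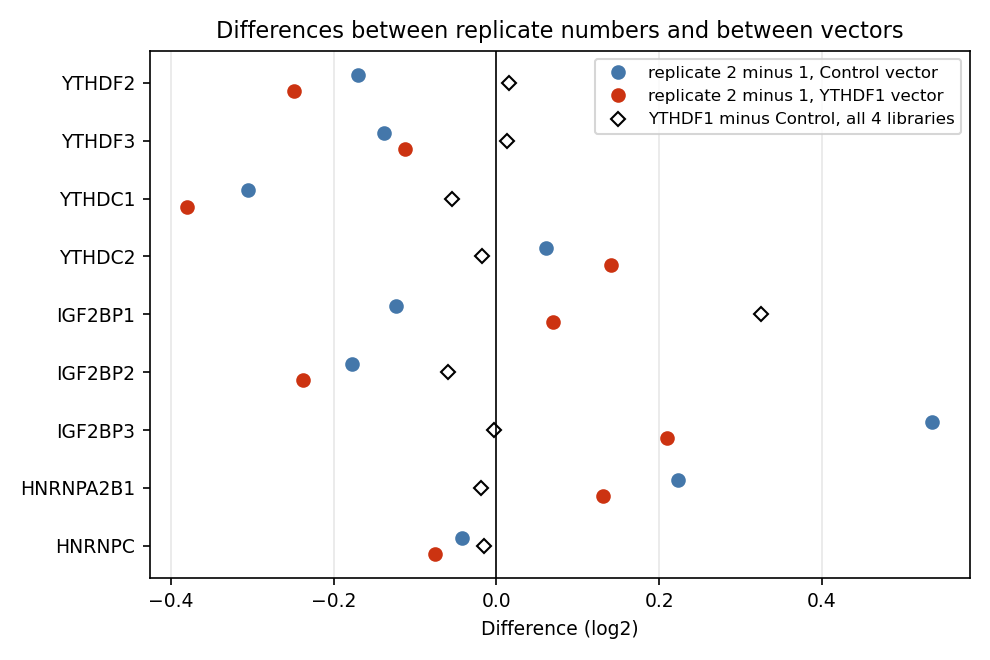
Differences on the log2 scale for the 9 readers other than YTHDF1. Blue and red points are replicate 2 minus replicate 1 with the Control and the YTHDF1 vector, and open diamonds are YTHDF1 minus Control over all 4 libraries, which lie nearer to 0 than both points for every gene but IGF2BP1.

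No expressed gene had a profile close to that of YTHDF1, by a measure that keeps the size of the differences. YTHDF1 is the gene of the vector, so this distance follows from the size of its own fold change. Among 9991 genes with a mean of at least 10 CPM, the nearest were HSPE1-MOB4, EGR1 and FOS, with root mean square differences of 2.85, 2.99 and 3.0 on the log2 scale over 4 libraries. HSPE1-MOB4, a read‐through gene whose exons belong to its neighbours, had 614 and 400 counts in Control and 1221 and 615 with YTHDF1, replicate 1 first. EGR1, an immediate early transcription factor, had 11121 and 3248 counts in Control and 20685 and 3558 with YTHDF1. FOS, a component of AP‐1, had 1088 and 236 counts in Control and 2092 and 267 with YTHDF1. All 3 were highest in YTHDF1 replicate 1, which goes with their choice by likeness to YTHDF1 and is not a separate result. In EGR1 and FOS both libraries numbered 2 were far below both numbered 1. The unadjusted p by edgeR was 0.153 for HSPE1-MOB4, 0.537 for EGR1 and 0.56 for FOS.

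The rest of the m6A pathway was also without a called gene. Of 40 genes in 6 lists, all were tested. At the unadjusted threshold edgeR called 0 of them in either direction, beside 0.0225% higher and 0.0787% lower of all genes tested. By edgeR 0 had an unadjusted p under 0.05, beside 24 of the 17781 genes tested. With shares this low, a count of 0 does not set these lists apart. Their median log2 fold change was 0.013. The groups did not overlap for 4 of the 40 genes, beside 11.5% of all genes tested, with FMR1, ALKBH5 and CNOT6L higher and the mRNA export factor NXF1 lower with YTHDF1 in these libraries. Among 9 writers, which deposit m6A, 8 had a log2 fold change below 0, or 88.9% against 47.8% of all genes tested, but 6 of the 9 had opposite signs within the 2 replicate numbers and 3 were below 0 in both. The writers had values from −0.12 for VIRMA, the scaffold of the methyltransferase complex, to 0.015 for ZC3H13, and a median of −0.015. The erasers, which remove m6A, were at 0.070 for FTO and 0.049 for ALKBH5. Among 8 further proposed readers, FMR1, the fragile X protein, was highest at 0.082 and FXR2, its paralog, lowest at −0.085.

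Effectors of the readers were part of the 40 genes, so they were not called either. The 10 genes of the CCR4‐NOT deadenylase had a median of 0.013, from −0.080 for CNOT10 to 0.16 for CNOT6L, 1 of its nucleases, with 6 genes above 0. CNOT6L had group means of 40.1 CPM in Control and 44.8 CPM with YTHDF1, with an adjusted p = 1.00 by edgeR. Among 6 decay and cleavage partners, RIDA, the adaptor between YTHDF2 and the RNase P and MRP endonucleases, was highest at 0.15, and UPF1, the helicase of nonsense‐mediated decay, lowest at −0.061. The median of these 6 was 0.043, with 5 above 0 and a median size of 0.051, against a median size of 0.069 over all genes tested. Among 5 partners of the nuclear readers the range was from −0.079 for DROSHA to 0.044 for DGCR8, which together cleave primary microRNAs.

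GGACT is a common core of methylated sites. Counted on the sense strand of the transcripts named above, with overlaps allowed, the density ran from 0 per kb in HNRNPA2B1 to 1.36 per kb in IGF2BP2, and 4 of the 10 members lay above the median of 0.937 per kb over 19005 coding transcripts. GGACT was found at least once in 88.7% of those transcripts. YTHDF1 held 1 match (0.303 per kb), fewer per kb than YTHDF2 with 3 matches (1.03 per kb). A match is a run of letters and says nothing of whether the site is methylated.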

How the data were processed

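mRNA was measured in 4 libraries of SNU638 cells, 2 with each vector. The authors deposited whole‐number read counts per gene without normalization. Per the labels, stranded libraries were made from poly(A) RNA and the processing notes name Trimmomatic, HISAT2 and GRCh38. The counting tool, strand setting and annotation release are not given in the sources used here. Counts per library and the floor of 3 counts (0.0497 to 0.0529 CPM) limit precision by counting error only.

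Genes were kept by filterByExpr, scaled by TMM and compared with edgeR 4.0.16 (glmQLFit, glmQLFTest, limma 3.58.1, R 4.3.3) without a block, with Benjamini-Hochberg adjustment over 17781 genes. The threshold, a log2 fold change of 0.5 and p under 0.05, follows the paper's. Intervals are the estimate ± the t quantile times the standard error. CPM within a replicate number were compared on the log2 scale with a prior count of 0.5, without a test. If the replicates are not separate cultures, p-values measure technical spread only. Transcript lengths, coordinates and sequences are from GENCODE release 29 (GRCh38). The scripts were tested on simulated data. Plots used matplotlib 3.10.9 in Python 3.11.15.

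The members, lists and thresholds were chosen with earlier results of these data known. The within‐number threshold was also applied to the replicate numbers, a choice made after the values were seen. By rule the text names every member, the highest and lowest gene of each list, any called gene, the 3 profiles nearest to YTHDF1, and genes that copy or overlap a member. NXF1 was named outside this rule, because its groups did not overlap, and the cell type markers come from separate lists. A list of IFN‐γ response genes, a check of the treatment, is not reported here.

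Alternatives were DESeq2 1.42.0 size factors, its Wald test, other filters on low counts, library sizes without YTHDF1, the replicate number as a block, a prior count of 2, the coding length, any size of fold change, and each library left out.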

Additional observations from a re-analysis of the deposited data

How the results depend on the processing

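YTHDF1 passed the unadjusted threshold in all 11 alternative fits, with log2 fold changes of 6.34 to 6.88 with all libraries and 5.02 to 7.66 with 1 left out. None of the 99 alternative fits of the other 9 readers passed it. With 1 library left out, the lone library of a vector is assumed to vary like the others, and the replicate numbers are unbalanced. The log2 fold change then ran from −0.11 to 0.13 for YTHDF2, −0.055 to 0.084 for YTHDF3, −0.26 to 0.12 for YTHDC1, −0.096 to 0.052 for YTHDC2, −0.18 to 0.048 for IGF2BP2, −0.25 to 0.29 for IGF2BP3, −0.13 to 0.097 for HNRNPA2B1 and −0.052 to 0.015 for HNRNPC.

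The numbers give only 2 pairs, and the labels do not say that they pair the libraries, so the replicate block is an alternative. Over the genes tested, libraries with the same number deviated together from their group means (r = 0.875). With it the value of IGF2BP3 turned from −0.0028 to 0.015 with edgeR and 0.018 with DESeq2, and 1 member, YTHDF1, was called higher at an adjusted p under 0.05 by edgeR, among 1 higher and 7 lower genes in all. DESeq2's Wald test called it at that level without the block, among 1 higher and 2 lower genes, but with the block its adjusted p was 1.00. At the unadjusted threshold the block gave 58 higher and 134 lower genes with edgeR in place of 4 and 14, and 10 and 31 with DESeq2 in place of 3 and 11. No filter gave 32 and 50. The standard errors were smaller with the block, at 0.047 for YTHDF2 and 0.046 for YTHDF3, whose log2 fold changes were 0.013 and 0.014. With the block VIRMA and CNOT6L had an unadjusted p under 0.05 by both tools, with log2 fold changes of −0.12 and 0.16 and adjusted p = 1.00. They did not reach the fold change needed for a call. The share of all genes tested with such a p was not computed for these fits, so it does not set VIRMA and CNOT6L apart. The block changed no call of the other 9 members. The 54 values within a replicate number moved by less than the spread between the numbers under other scaling or prior counts, although 2 signs close to 0 turned with YTHDF1 left out of the library sizes. With the coding length the mean YTHDF1 share in Control was 29.3% in place of 31.0%. The cause of these changes was not tested, except where an alternative's construction shows it.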

Other observations

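YTHDF3-AS1, a long non‐coding RNA named as antisense to YTHDF3, had 36 and 35 counts with the Control vector and 25 and 20 with YTHDF1, so its groups did not overlap. On the log2 scale the difference was −0.69, with a standard error of 0.41 and an adjusted p = 1.00 by edgeR. Where antisense genes overlap, reads cannot be told apart unless the counting used strand, which is not given in the sources used here. YTHDF2P1, the pseudogene of YTHDF2, had a log2 fold change of 0.19 (standard error 0.36), and its value within replicate 2, 0.42, came from 47 and 67 counts.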
